A study of Mus musculus with 38 samples.

Results

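The genes described here encode splicing factors and related proteins that carry Sm, LSm, SF3, Prpf or Srsf names, most of them parts of the spliceosome. They were taken as the protein-coding rows of a deposited expression table whose symbol is Lsm1 to Lsm8, Lsm10 or Lsm11, or begins with Snrp, Sf3a or Sf3b, with Prpf and a number, or with Srsf and a number. This gave 54 of the 23125 rows of the table, 16151 of which are protein-coding. By role the members were 8 Sm core genes, 4 genes of proteins particular to the U1 or U2 snRNP, 8 genes of the LSm ring, 2 genes of the U7 LSm proteins, 3 SF3a genes, 6 SF3b genes, 13 Prpf genes and 10 SR protein genes.

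The spliceosome removes introns from pre-mRNA and is built from small nuclear ribonucleoproteins (snRNPs), each a small nuclear RNA with its proteins. The Sm proteins (Snrpb, Snrpd1, Snrpd2, Snrpd3, Snrpe, Snrpf and Snrpg) form a ring around the U1, U2, U4 and U5 RNAs, and the related LSm proteins form a ring on U6 RNA. A second LSm ring, in which Lsm1 takes the place of Lsm8, acts in mRNA decay in the cytoplasm, and Lsm10 and Lsm11 belong to the U7 snRNP, which processes the 3′ ends of histone pre-mRNA. The fully grown oocyte and the early embryo are largely silent in transcription, and stored maternal mRNAs are translated at set times until the embryonic genome is activated, which in mouse occurs mainly at the two-cell stage.

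RNA was sequenced from wild-type ICR mice at 6 stages: fully grown oocytes in prophase with a germinal vesicle (GV), oocytes matured in vitro to metaphase of the second meiosis (MII), interphase zygotes, M-phase zygotes (zygote M), interphase two-cell embryos (two-cell) and M-phase two-cell embryos (two-cell M). The oocytes came from PMSG-primed females and were isolated in IBMX, which holds meiosis, the embryos came from PMSG- and hCG-primed females mated within the strain, and both kinds of M-phase embryo had been treated with 10 µM nocodazole, which blocks the spindle and which the other groups did not receive. All groups were lysed after cycloheximide, which holds ribosomes on mRNA, and of the 10 fractions of each sucrose gradient the 5 light ones were pooled as the non-polysome sample and the 5 heavy ones as the polysome sample. There are 3 libraries for each stage and fraction, 36 in all, with letters A, B and C, or B, C and D in the zygote. Each library holds RNA of many pooled cells, so a change in RNA per cell and a change in the number of cells that hold a transcript cannot be told apart, and in embryos the M-phase and the nocodazole cannot be told apart either. The labels describe the triplicates as biological. They write meiosis as the treatment of both embryo M-phase groups, which were taken here as cells in the M-phase of cleavage, the division the study describes.

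The values are FPKM (fragments per kilobase of transcript, scaled to the mapped fragments of the library), a level per length within 1 library, with a lowest value of 0.01 in every library, called the floor here. From the spacing of low values in 3493 single-exon genes, the depth came to between 8490000 and 26700000 fragments a library, but only 46.5% to 63.5% of the low values lay within 0.02 of a whole number of fragments, so the depth is an estimate and was not used in a test. The lowest depth was that of a two-cell M non-polysome library, and the two-cell M polysome libraries came to 11100000 to 19400000 fragments. All 10 oocyte markers were measured, and their summed level in polysomes ran from 5644 to 6742 FPKM in GV down to 53.7 to 231 FPKM in two-cell M. All 8 two-cell markers reached 1 FPKM in two-cell polysomes and 6 of the 8 did in two-cell M. Their summed level in polysomes did not set the two-cell stage apart. It was 121 to 188 FPKM in two-cell, 10.3 to 135 FPKM in two-cell M and 176 to 323 FPKM in GV, where 2 of the 8 reached 1 FPKM. Outside polysomes their sum was 445 to 737 FPKM in two-cell and 90.7 to 497 FPKM in two-cell M. At the earlier stages it was at most 204 FPKM there. The 10 cumulus and granulosa markers with a row summed to between 0.1 and 4.86 FPKM over the polysome libraries, with 3 to 7 of them at the floor in all libraries of a group, and in the non-polysome fraction to as much as 35.1 FPKM in two-cell and 24.0 FPKM in MII. The 4 blood genes with a row summed to 34.3 to 83.7 FPKM in two-cell polysomes and 24.4 to 42.5 FPKM in two-cell M, against at most 1.33 FPKM in the other polysome groups. In the non-polysome fraction they summed to 99.7 to 162 FPKM in two-cell and 0.04 to 52.6 FPKM in two-cell M. These sums were nearly all Hba-a1, which reached 160 FPKM. The highest values in any library were 2.64 FPKM for Hba-a2, 0.426 FPKM for Hbb-bs and 0.331 FPKM for Hbb-bt. The 3 sperm genes with a row came to between 0.03 and 6.32 FPKM. The part of these markers in the results on splicing genes was not tested.

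Several of the members have retrocopies, intronless copies of their mRNA elsewhere in the genome, and these bear on how the values can be read. In a comparison of coding sequences with the GENCODE M21 transcripts of GRCm38, 15 of the 54 members had another locus at 95% identity or more over at least 80% of the coding sequence, and for 13 of them such a copy had a row that reached 1 FPKM. How the authors counted fragments that match more than 1 place is not given in the sources used here. Fragments from a stretch that is identical in a member and its copy therefore cannot be told apart. For Snrpe, the gene of SmE, the row of the processed pseudogene Snrpert held higher values than that of the member in every polysome library. For Lsm7, the processed pseudogene Gm10146 had 100% identity over 100% of the coding sequence.

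The coding sequence of Snrpg, which encodes SmG, is shown because, like that of Lsm7, it cannot be told from its copy at all. The member lies on the plus strand at chr6:86371304-86379328 and the processed pseudogene Gm8186 on the minus strand at chr17:26098991-26099221, in GRCm38, and their 228 coding bases without the stop codon are identical. The start codon is in capitals.
Snrpg and Gm8186: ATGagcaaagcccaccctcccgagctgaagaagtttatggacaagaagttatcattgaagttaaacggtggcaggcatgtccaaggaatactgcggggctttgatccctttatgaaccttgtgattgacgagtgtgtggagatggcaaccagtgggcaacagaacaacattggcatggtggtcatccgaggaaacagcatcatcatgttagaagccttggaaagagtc

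In polysomes the rows of the copies held most of the summed FPKM for several members. Over the 18 polysome libraries, 99.1% of the summed level of Snrpg and Gm8186 stood in the row of the copy. The share was 93.0% for Snrpe with Snrpert and 89.0% for Snrpf, the gene of SmF, with Gm13092. It was 81.7% for Lsm7, a protein of the U6 ring, with Gm10146, and 47.8% for Snrpd2, the gene of SmD2, with Gm10120 and Gm5449. Lsm5, Srsf10 and Srsf5 also had most of the sum in the rows of copies (94.1%, 85.9% and 75.4%), and Sf3b4 and Snrpc had 47.2% and 41.5% there. Over the 6 polysome stage means, which share their libraries, Pearson's r between a member and its copies was 1.0 for Snrpg, 0.994 for Snrpe, 0.985 for Lsm7, 0.982 for Snrpf and 0.978 for Snrpd2. For Srsf3, an SR protein gene, it was -0.0504, with 86.7% of the sum in the rows of its copies Gm12355 and Gm9761, and for Snrpd1 it was -0.187, with 40.9% in Gm14277. The other 8 members with such a copy lay between 0.656 (Srsf10) and 0.978 (Sf3b4). All changes below are those of the member's row unless a copy is named. Of the other named members, Snrpd2 lies at chr7:19149722-19153543, Lsm7 at chr10:80852821-80855210, Snrpf at chr10:93583029-93589707, Snrpb at chr2:130171414-130179404, Lsm10 at chr4:126096623-126098585 and Srsf2 at chr11:116849901-116853095, each as the table gives it.

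**Figure D1:**
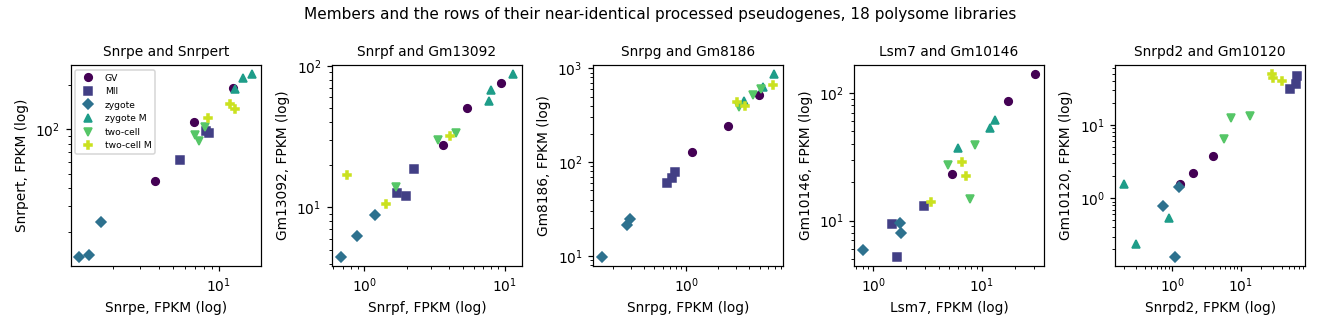
FPKM of 5 members (x axis, log scale) against FPKM of the row of a near-identical processed pseudogene (y axis, log scale) in the 18 polysome libraries, 1 point a library, with the stage as symbol. Levels of member and copy rise together in most libraries of each panel, and the Gm8186 row lies far above the Snrpg row, with 99.1% of their sum.

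Levels in polysomes differed widely among the members. The highest mean over the 18 polysome libraries was that of Lsm10 at 148 FPKM, followed by the SR protein gene Srsf2 at 55.0 FPKM, Sf3b5 at 38.3 FPKM and Snrpd2 at 17.8 FPKM. The lowest was that of Prpf39 at 0.0444 FPKM. The highest 2 of each role, beside those named, were Lsm2 (12.2 FPKM) and Lsm7 (7.43 FPKM) in the LSm ring, Snrpe (8.31 FPKM) in the Sm core, Snrpa (6.14 FPKM) and Snrpc (1.63 FPKM) among the U1 and U2 proteins, Sf3b4 (10.5 FPKM) in SF3b, Sf3a2 (6.39 FPKM) and Sf3a1 (2.13 FPKM) in SF3a, Prpf19 (2.14 FPKM) and Prpf38a (1.84 FPKM) among the Prpf genes, Lsm11 (1.07 FPKM) with U7, and Srsf5 (2.78 FPKM) among the SR proteins. Of the 13 Prpf genes none had a mean above 2.14 FPKM. The summed level of the 54 members was highest in MII, at 566 to 648 FPKM a polysome library, and the lowest single library was one of two-cell, at 238 FPKM. Lsm10 alone made up 237, 288 and 283 FPKM of the sums in MII, so they mostly follow a few members. As a share of all FPKM of the library, the sum was 0.472% to 0.532% in MII and 0.222% to 0.374% in two-cell. That share was lowest in two-cell M, at 0.168% to 0.216%. Shorter coding sequences went with higher levels among the 50 members tested, with Spearman's rho of -0.52 between coding length and mean polysome FPKM (range 228 bases in Snrpg to 7005 bases in Prpf8), a description across genes that are not independent.

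Differences between groups were tested on log2 FPKM with limma, fitted to the 7967 genes whose geometric mean over all libraries reached 0.1 FPKM, and all adjusted p-values below are those of limma with Benjamini-Hochberg adjustment over these genes. A member is called in a comparison at an adjusted p under 0.05 and a change beyond 2-fold. Of the 54 members 50 passed the minimum. Prpf39, Prpf40b, Snrpn and Srsf4 did not: their highest values in polysomes were 0.193, 0.326, 0.299 and 0.459 FPKM. A difference between stages of any kind in polysomes (moderated F-test) was found in 30 of the 50 members, beside 62.9% of all genes tested, and in the non-polysome fraction in 37 of the 50, beside 78.3%. Neither share was above the background. In the Sm core it was 6 of 7 in polysomes and 7 of 7 in the non-polysome fraction, in the Prpf genes 5 of 11 and 6 of 11, and in the SR proteins 4 of 9 and 5 of 9. The stage with the highest median in polysomes was MII for 16 of the 50 members, GV for 13, two-cell M for 10, zygote M for 6, the zygote for 5 and two-cell for none.

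**Figure D2:**
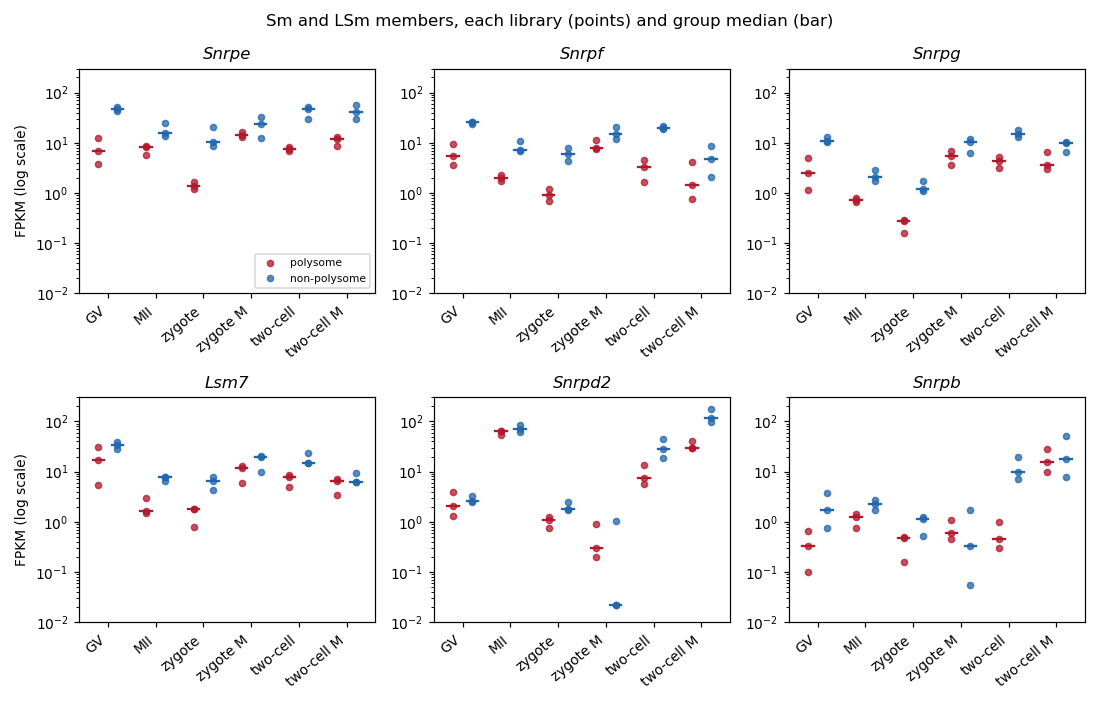
FPKM (log scale) of 5 Sm core members and Lsm7 at the 6 stages, with 1 point a library, polysome libraries in red, non-polysome libraries in blue and a bar at the median of each group of 3. Snrpe, Snrpf, Snrpg and Lsm7 are low in zygote polysomes and higher in zygote M, whereas Snrpd2 stands highest in MII and Snrpb in two-cell M among the polysome groups.

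Between GV and MII, the meiotic transition from prophase to metaphase, Snrpd2 rose and Lsm7 and Snrpg fell in polysomes. This was 1 of 50 members higher, beside 3.36% of all genes tested, and 2 of 50 lower, beside 2.75%. Snrpd2 stood at 2.05, 3.97 and 1.32 FPKM in the 3 GV libraries and 65.1, 65.3 and 52.9 FPKM in the 3 MII libraries. The groups lay far apart, with a log2 fold change of 4.78 ± 0.88 SE, adjusted p = 0.000592. The row of its copy Gm10120 moved likewise, from 2.18, 3.80 and 1.58 to 36.2, 46.2 and 31.0 FPKM (3.98 ± 1.01 SE, adjusted p = 0.0137). The non-polysome libraries stood at 2.46, 3.30 and 2.55 FPKM in GV and 61.6, 70.2 and 84.6 FPKM in MII, also without overlap, a difference that was not tested. Lsm7 went from 17.4, 31.1 and 5.33 FPKM to 1.48, 2.96 and 1.65 FPKM (-2.88 ± 0.56 SE, adjusted p = 0.0011). All GV libraries were above all MII libraries, although they spread widely, with GV library C lowest. Snrpg went from 2.5, 4.90 and 1.13 FPKM to 0.660, 0.783 and 0.728 FPKM (-1.73 ± 0.53 SE, adjusted p = 0.0489), which is at the edge of the threshold: the call was kept only without GV library C, and without GV B it was -1.22 (adjusted p = 0.321), with adjusted p between 0.116 and 0.148 without any of the other 4. It also fell away when only the 6 libraries were fitted (adjusted p = 0.074). The rows of the copies were called lower in MII as well. Gm8186, the copy of Snrpg, changed by -1.89 (adjusted p = 0.00167) and Gm10146, the copy of Lsm7, by -2.92 (adjusted p = 0.000247). Both members were also lower in MII outside polysomes, without overlap, which was not tested. Lsm7 went there from 38.8, 28.9 and 34.6 FPKM to 7.66, 6.41 and 7.92 FPKM. Snrpg went from 12.7, 10.2 and 10.8 FPKM to 2.11, 1.73 and 2.86 FPKM.

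Members that did not pass in this comparison include some with no overlap between groups. Snrpa, the gene of the A protein of the U1 snRNP, was listed at 1.35, 2.31 and 1.46 FPKM in GV and 17.8, 15.4 and 17.3 FPKM in MII (3.35 ± 1.18 SE, adjusted p = 0.098). The members' median log2 change was 0.12 and that of all genes tested 0.18. Under quantile normalization, which moved the median of all genes by -0.31, the members' median was -0.11, with 6 members higher and 5 lower, beside 8.8% and 10.6% of all genes. With only the libraries of these 2 groups fitted it was 8 higher and 5 lower, beside 16.1% and 11.1%.

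In the zygote, 3 Sm genes and Lsm7 rose in polysomes from interphase to M-phase, and Sf3b6 and Srsf2 fell. The counts were 4 of 50 higher, beside 3.24% of all genes, and 2 of 50 lower, beside 2.51%. The members' median log2 change was -1.17, below the -0.43 of all genes tested, and 13 of the 50 lay above 0. Snrpe stood at 1.39, 1.20 and 1.66 FPKM in zygote polysomes and at 14.4, 16.7 and 12.9 FPKM in zygote M (3.38 ± 0.47 SE, adjusted p = 1.04e-05). Snrpg, listed at 0.272, 0.158 and 0.295 FPKM, came to 5.45, 6.90 and 3.57 FPKM (4.46 ± 0.53 SE, adjusted p = 1.07e-06). Snrpf, at 0.891, 0.677 and 1.19 FPKM, came to 8.03, 11.5 and 7.66 FPKM (3.31 ± 0.58 SE, adjusted p = 0.000302). In each of the 3 every M-phase library was above every interphase library, and SmE, SmF and SmG are neighbours in the Sm ring. Lsm7 went from 1.81, 0.805 and 1.78 FPKM to 11.9, 13.2 and 6.0 FPKM (2.83 ± 0.56 SE, adjusted p = 0.00126), again without overlap. All 4 were called without each of the 6 libraries in turn. Their coding sequences are short, at 228 bases in Snrpg, 258 in Snrpf, 276 in Snrpe and 309 in Lsm7. Over the 50 members tested, Spearman's rho between coding length and this change was -0.52, a description across genes that are not independent. The part of length in these rises was not tested.

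The rows of the copies of these 4 genes rose as well, and hold most of the FPKM. Gm8186 went from 21.3, 9.85 and 24.6 FPKM to 639, 861 and 449 FPKM (5.18 ± 0.38 SE, adjusted p = 2.04e-10). Snrpert went from 14.0, 13.7 and 23.6 FPKM to 224, 237 and 188 FPKM (3.71 ± 0.42 SE, adjusted p = 4.03e-07). These are levels far above those of Snrpg and Snrpe themselves. Gm13092, the copy of Snrpf, rose by 3.46 on the log2 scale and Gm10146, the copy of Lsm7, by 2.69 (adjusted p = 1.66e-05 and 0.000587). In the non-polysome fraction Snrpg also stood higher in zygote M (10.3, 12.1 and 6.33 FPKM) than in the zygote (1.75, 1.19 and 1.07 FPKM). Snrpf and Lsm7 were higher there in zygote M as well, without overlap. Snrpf stood at 11.9 to 20.5 FPKM in zygote M and 4.23 to 7.97 FPKM in the zygote. Lsm7 stood at 9.81 to 20.1 FPKM and 4.31 to 7.70 FPKM. Snrpe, at 24.1, 32.5 and 12.2 FPKM against 20.3, 10.1 and 8.71 FPKM, overlapped. These differences within the non-polysome fraction were not tested.

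Of the other direction, Sf3b6, the SF3b protein that lies at the branch point adenosine, stood at 0.415, 0.304 and 0.358 FPKM in the zygote and at 0.01, 0.0194 and 0.01 FPKM in zygote M, where 2 of 3 libraries are at the floor (-4.84 ± 1.10 SE, adjusted p = 0.00535). The size of that change depends on how values at the floor are handled: with 1 FPKM added to all values it was -0.42 (adjusted p = 0.65), and under quantile normalization the adjusted p was 0.081. Srsf2, an SR protein that binds exonic enhancers, went from 103, 105 and 112 FPKM to 30.1, 42.1 and 36.6 FPKM (-1.57 ± 0.38 SE, adjusted p = 0.0103). Its groups did not overlap, and the call was lost without zygote M library A (-1.44, adjusted p = 0.0616). Under quantile normalization, which moved the median of all genes by 0.43, the members' median was -0.36, with 7 members higher and 6 lower, beside 8.36% and 6.23% of all genes. With only the libraries of these 2 groups fitted it was 7 higher and 16 lower, beside 11.4% and 21.7%.

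**Figure D3:**
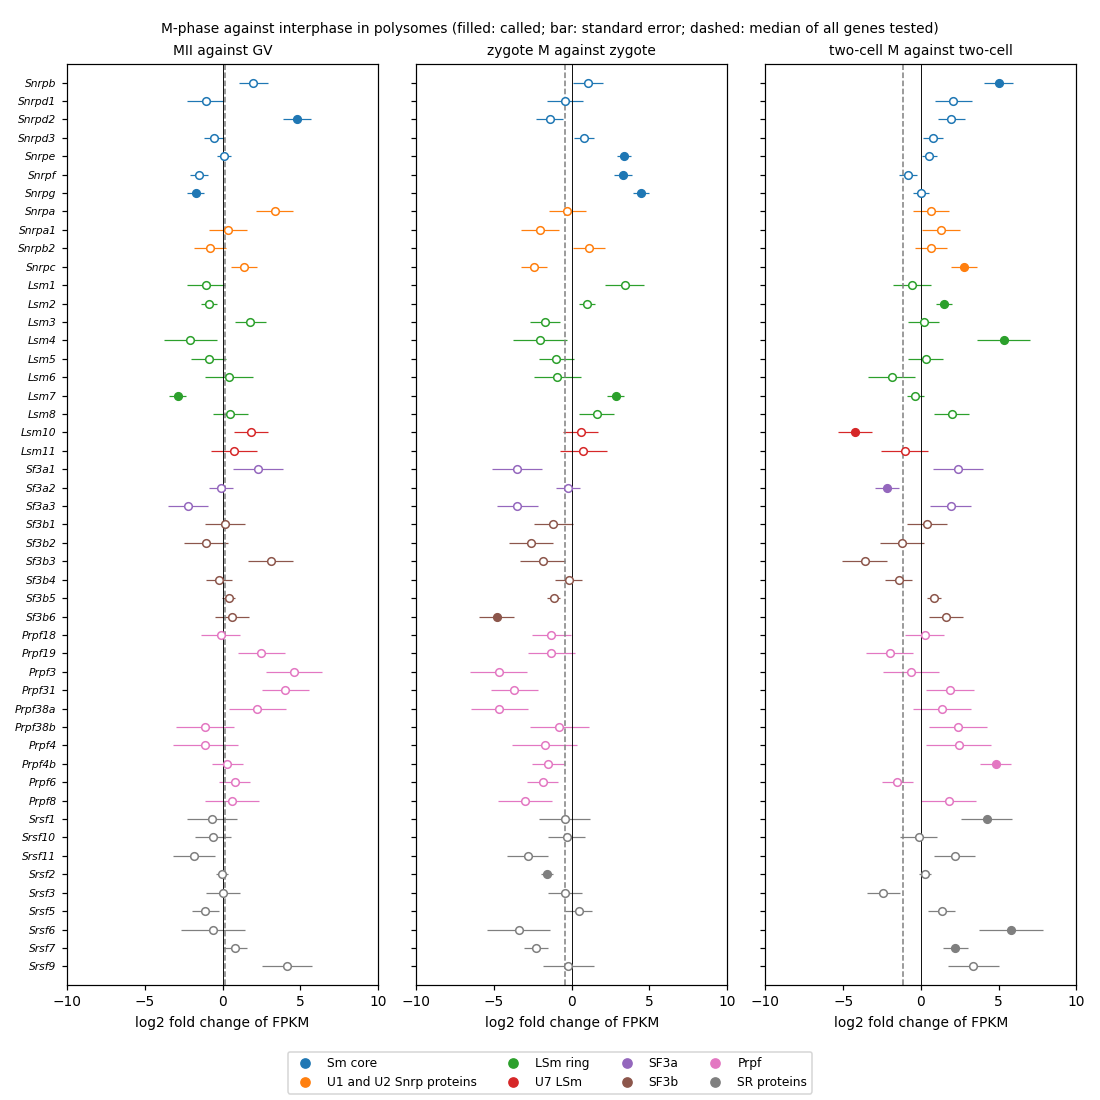
Log2 fold change of FPKM (x axis) from interphase to M-phase in polysomes for 49 of the 50 members tested (y axis, coloured by role), for MII against GV, zygote M against zygote and two-cell M against two-cell. Bars are standard errors, filled points are called and the dashed line is the median of all genes tested, -1.17 in the two-cell panel, where most members lie to its right.

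In the two-cell embryo, 8 of the 50 members rose in polysomes from interphase to M-phase, 3 of them SR protein genes, and 2 fell. Beside this 8.13% of all genes were higher and 28.1% lower. The members' median log2 change was 0.80 and that of all genes -1.17. Snrpb, the gene of SmB, stood at 0.976, 0.296 and 0.462 FPKM in two-cell polysomes and at 9.84, 28.6 and 15.5 FPKM in two-cell M (5.00 ± 0.95 SE, adjusted p = 0.000175). The groups lay apart, and the call was kept without each library. Prpf4b, a kinase of the spliceosome, went from 0.0179, 0.0239 and 0.0168 FPKM to 0.537, 0.527 and 0.554 FPKM (4.80 ± 1.01 SE, adjusted p = 0.000533), levels under 1 FPKM in every library. Snrpc, the gene of the C protein of the U1 snRNP, went from 0.767, 0.859 and 0.747 FPKM to 4.14, 8.02 and 4.86 FPKM (2.79 ± 0.84 SE, adjusted p = 0.0104). Both were called without each of the 6 libraries. With 1 FPKM added the change of Prpf4b was 0.59, under the 2-fold limit.

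The calls of the SR protein genes rested on fewer fits. Srsf6 went from 0.150, 0.0355 and 0.0568 FPKM to 9.39, 2.69 and 2.04 FPKM (5.79 ± 2.04 SE, adjusted p = 0.0274). Srsf1 went from 0.324, 0.159 and 0.133 FPKM to 5.53, 2.45 and 3.32 FPKM (4.23 ± 1.64 SE, adjusted p = 0.0442). Srsf7 went from 0.565, 1.43 and 0.663 FPKM to 5.93, 2.07 and 4.38 FPKM (2.21 ± 0.79 SE, adjusted p = 0.0303). In none of the 3 did the groups overlap, but the calls depended on single libraries. That of Srsf1 was lost without any of the 6, with adjusted p from 0.063 to 0.117. That of Srsf6 was lost without two-cell B or C or two-cell M A or B (adjusted p from 0.0509 to 0.0956), and that of Srsf7 without two-cell A or C or two-cell M A or C (0.0666 to 0.111). Srsf1 (adjusted p = 0.083) and Srsf6 (0.056) were also not called when all genes were tested without a minimum, and Srsf7 (0.078) when only these 6 libraries were fitted.

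Lsm10 fell in the same comparison, from 179, 277 and 125 FPKM to 37.8, 1.53 and 15.6 FPKM (-4.25 ± 1.11 SE, adjusted p = 0.00379). The M-phase libraries spread from 1.53 to 37.8 FPKM and all were below the interphase ones. Without two-cell M library B the change was -2.92 (adjusted p = 0.0518), and with only the 6 libraries in the fit the adjusted p was 0.052. Lsm2 of the U6 ring went from 4.07, 5.82 and 10.0 FPKM to 27.3, 14.1 and 13.7 FPKM (1.49 ± 0.52 SE, adjusted p = 0.0272), a call lost without two-cell A or B or two-cell M A (adjusted p from 0.0653 to 0.128). Lsm4 (0.01, 2.08 and 0.01 to 7.91, 1.52 and 1.11 FPKM) and Sf3a2 (1.47, 6.41 and 2.53 to 0.536, 0.219 and 2.18 FPKM), the first called higher and the second lower, have overlapping libraries. Lsm4 was not called without two-cell A or C or two-cell M A (0.0798 to 0.106), nor Sf3a2 without two-cell B or two-cell M A or B (0.0738 to 0.186) or under quantile normalization (0.097). Part of the Sf3a2 row shares exon bases with Plekhj1 on the opposite strand (429 bases, 16.1% of its exons), a row that reached 274 FPKM, and the kit does not mark strand. Under quantile normalization, which moved the median of all genes by 1.39, 21 members were higher and 1 lower, beside 18.6% and 18.7% of all genes. With only these 6 libraries fitted the counts were 6 and 0, beside 6.55% and 14.4%. No member was called in all 3 comparisons of M-phase with interphase.

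**Figure D4:**
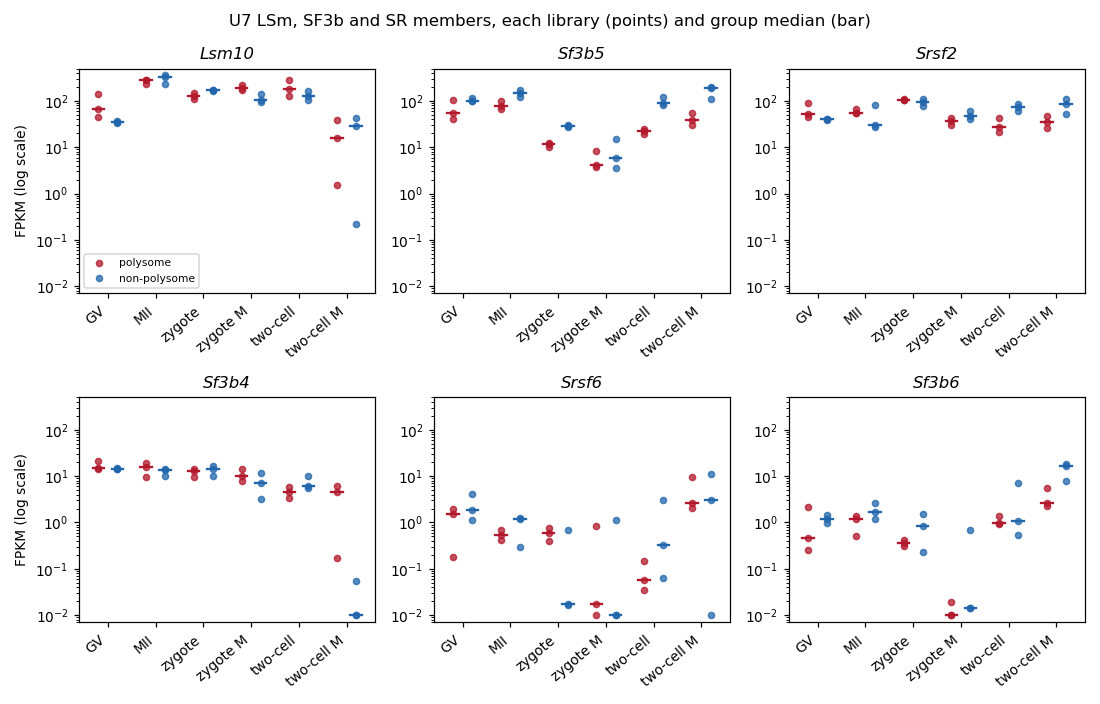
FPKM (log scale) of 6 further members at the 6 stages, drawn as for the Sm genes, with 1 point a library and a bar at the median of each group of 3. Lsm10 and Srsf2 are high at most stages, Lsm10 falls in two-cell M, Srsf6 rises there in polysomes, and Sf3b6 is near the floor of 0.01 in zygote M polysomes.

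The changes from interphase to M-phase differed between the oocyte, the zygote and the two-cell embryo for a part of the members, as tested by interaction contrasts. The zygote change was above the oocyte change for 4 of 50 members, beside 4.46% of all genes, and below it for 5 of 50, beside 5.06%. The 4 were Snrpg, Lsm7, Snrpf and Snrpe, for which the change in the zygote exceeded that in the oocyte by 6.19, 5.71, 4.84 and 3.29 on the log2 scale. Lsm7 and Snrpg fell in the oocyte and rose in the zygote. For Snrpd2 the difference was -6.20 ± 1.24 SE, adjusted p = 0.00108, with zygote levels of 0.741, 1.24 and 1.10 FPKM in interphase and 0.913, 0.199 and 0.296 FPKM in M-phase. That of its copy Gm10120 was -3.93 and did not pass (adjusted p = 0.0837). The members' median difference was -1.27 (all genes -0.67). Under quantile normalization it was 0.03, with 8 members above and 11 below, beside 13.6% and 11% of all genes.

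The two-cell change was above the zygote change for 12 of 50 members, beside 6.87% of all genes, and below it for 5 of 50, beside 16.8%. It was above the oocyte change for 4 of 50, beside 4.83%, and below it for 2 of 50, beside 18.7%. The 12 were of several roles and included Srsf6, Srsf7 and Srsf2, while 4 of the 5 below were Snrpe, Snrpf, Snrpg and Lsm7, the genes that rose in zygote M. In two-cell M against two-cell these 4 changed by 0.54, -0.84, 0.02 and -0.36, with none called. The zygote change enters both the difference of zygote from oocyte and that of two-cell from zygote, so these tests are not independent of each other. The members' median difference of two-cell over zygote was 1.70, that of all genes -0.86. Under quantile normalization it was 2.42, with 19 members above and 6 below, beside 13.7% and 15.9% of all genes, and the two-cell change was above the oocyte change for 17 members and below it for 3, beside 15.8% and 14.5% of all genes.

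Among the interphase stages, 5 members were higher in GV than zygote polysomes and none was lower, beside 3.88% and 1.73% of all genes. Lsm7 at 17.4, 31.1 and 5.33 FPKM in GV against 1.81, 0.805 and 1.78 FPKM in the zygote differed by 3.37 ± 0.56 SE, adjusted p = 0.000176. Snrpg, from the GV and zygote values given above, differed by 3.37 ± 0.53 SE, adjusted p = 9.88e-05. Snrpf stood at 5.35, 9.45 and 3.63 FPKM in GV against the zygote values given, a difference of 2.67 ± 0.58 SE, adjusted p = 0.00373. The zygote levels of these 3 genes thus lay below those of both GV and zygote M. Sf3b5, the smallest SF3b protein, stood at 55.6, 103 and 41.5 FPKM in GV and 9.94, 11.6 and 12.3 FPKM in the zygote (2.46 ± 0.43 SE, adjusted p = 0.000319). Snrpe, at 6.88, 12.5 and 3.80 FPKM in GV, was the fifth (2.30 ± 0.47 SE, adjusted p = 0.00179). In none of the 5 did the GV and zygote polysome libraries overlap, and all 5 calls were kept without each library. Outside polysomes all 5 were also lower in the zygote than in GV without overlap, which was not tested. Sf3b5 stood there at 99.1 to 115 FPKM in GV and 27.1 to 30.3 FPKM in the zygote. Snrpe stood at 42.3 to 51.5 and 8.71 to 20.3 FPKM, and Lsm7 at 28.9 to 38.8 and 4.31 to 7.70 FPKM. Snrpf stood at 24.0 to 26.4 and 4.23 to 7.97 FPKM, and Snrpg at 10.2 to 12.7 and 1.07 to 1.75 FPKM. Quantile normalization gave 9 members higher and 4 lower, beside 9.58% and 8.12% of all genes, and a fit of the 2 groups alone 11 and 3, beside 16.8% and 14.2%. GV against the zygote, zygote M against the zygote and MII against GV share libraries, so these contrasts are not independent of each other.

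Against two-cell polysomes, 6 members were higher in GV and none was lower, beside 12.3% and 4.39% of all genes. Sf3a3, an SF3a subunit, stood at 2.08, 2.62 and 2.82 FPKM in GV and 0.132, 0.0826 and 0.0159 FPKM in two-cell (5.48 ± 1.31 SE, adjusted p = 0.00401). Snrpb2, the gene of U2B″, stood at 1.49, 2.90 and 4.49 FPKM in GV and 0.169, 0.0924 and 0.149 FPKM in two-cell (4.34 ± 1.05 SE, adjusted p = 0.00435). Neither overlapped, and both calls were kept without each library. Lsm4 stood at 4.99, 10.6 and 3.18 FPKM in GV, above the two-cell values with 2 libraries at the floor (6.54 ± 1.71 SE, adjusted p = 0.00833), and was not called without two-cell A or C (adjusted p = 0.0605 and 0.0624). Snrpd1, the gene of SmD1, stood at 1.85, 0.737 and 1.46 FPKM in GV and 0.0147, 0.190 and 0.0551 FPKM in two-cell (4.55 ± 1.16 SE, adjusted p = 0.00717), a call lost without two-cell A (3.62, adjusted p = 0.0559) and when the FPKM of its copy Gm14277 was added (2.85, adjusted p = 0.14). Sf3b5 and Srsf11 were the other 2, with calls lost without GV B or two-cell A for Sf3b5 (adjusted p = 0.114 and 0.0597) and without any library but two-cell C for Srsf11 (0.0565 to 0.246). The calls of Lsm4 (adjusted p = 0.063) and Srsf11 (0.064) were also lost with only the 6 libraries fitted, and those of Sf3b5 (0.084) and Srsf11 (0.054) under quantile normalization. This normalization moved the median of all genes by -0.80 and gave 4 members higher and 3 lower, beside 13% and 12.8% of all genes.

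Between the M-phases of the oocyte and the zygote, 9 members were higher in MII polysomes and 4 in zygote M polysomes, beside 8.95% of all genes higher in MII and 3.4% lower. Snrpd2, at 65.1, 65.3 and 52.9 FPKM in MII and 0.913, 0.199 and 0.296 FPKM in zygote M, showed 7.33 ± 0.88 SE, adjusted p = 8.54e-07. Sf3b5, at 77.8, 102 and 68.1 FPKM in MII and 3.69, 8.24 and 4.15 FPKM in zygote M, showed 4.02 ± 0.43 SE, adjusted p = 1.07e-07. Snrpc, at 1.61, 1.90 and 2.23 FPKM and 0.0652, 0.112 and 0.0573 FPKM, showed 4.67 ± 0.84 SE, adjusted p = 0.000256. All 3 sets of libraries lay apart, and their calls were kept without each library. Sf3b6, at 0.512, 1.19 and 1.39 FPKM in MII, was likewise above its zygote M values near the floor (6.24 ± 1.10 SE, adjusted p = 0.00021). Prpf3, a protein of the U4/U6 particle, stood at 2.52, 1.26 and 0.570 FPKM in MII and 0.0210, 0.01 and 0.01 FPKM in zygote M (6.57 ± 1.82 SE, adjusted p = 0.0151), with the call lost without MII A or zygote M B or C (adjusted p from 0.0506 to 0.0715). Of the 9 that were higher, 4 were Prpf genes, which is 4 of the 11 tested. Of these, Prpf4b and Prpf6 had changes of 3.05 and 2.95 at under 2.4 FPKM in every MII library. Prpf6 was called in none of the 6 fits that left out a library (adjusted p from 0.0715 to 0.178). Prpf4b, whose groups overlapped, was not called without MII A or B or zygote M A or C (0.165 to 0.193). Srsf7 (2.67 ± 0.79 SE, adjusted p = 0.0242), the ninth, was called only without MII B, with adjusted p from 0.0573 to 0.0992 in the other 5 fits. With 1 FPKM added, Sf3b6 (0.97, adjusted p = 0.11) and Prpf4b (0.23, 0.19) were not called.

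The 4 genes higher in zygote M than MII were Snrpg, Lsm7, Snrpf and Lsm2. Snrpg showed -2.83 ± 0.53 SE, adjusted p = 0.000465 and Lsm7 -2.34 ± 0.56 SE, adjusted p = 0.00478, both called without each library. Snrpf showed -2.18 ± 0.58 SE, adjusted p = 0.0111, lost without zygote M B (-2.0, adjusted p = 0.0585). Lsm2, at 6.78, 5.64 and 6.59 FPKM in MII and 22.0, 17.5 and 18 FPKM in zygote M, showed -1.60 ± 0.52 SE, adjusted p = 0.0432 and was called in none of the 6 fits without a library (adjusted p from 0.0922 to 0.134). Quantile normalization, which moved the median of all genes by -0.70, gave 13 members higher in MII and 9 lower, beside 12.7% and 13.4% of all genes, and a fit of the 2 groups alone 22 and 6, beside 27.1% and 13.5%.

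Against two-cell M, 13 members were higher in MII and 5 lower, beside 45.2% of all genes higher and 7.86% lower. The members' median log2 change was 0.86 and that of all genes 2.64. Snrpb was higher in two-cell M, with 0.762, 1.44 and 1.23 FPKM in MII and the two-cell M values above (-3.89 ± 0.95 SE, adjusted p = 0.00126). Snrpg, at 0.660, 0.783 and 0.728 FPKM in MII and 6.67, 3.66 and 3.02 FPKM in two-cell M, showed -2.54 ± 0.53 SE, adjusted p = 0.000271. Srsf1, at 0.01, 0.222 and 0.254 FPKM in MII with 1 library at the floor, showed -5.43 ± 1.64 SE, adjusted p = 0.00695 and lost its call without MII A (-3.91, adjusted p = 0.0688). The first 2 were called without each library. Lsm7 (-1.48 ± 0.56 SE, adjusted p = 0.0279) lost its call without MII A or C or two-cell M A or B (0.0793 to 0.097) and Lsm2 (-1.46 ± 0.52 SE, adjusted p = 0.0205) without MII B or two-cell M A (0.0593 and 0.105).

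Of the 13 higher in MII, Lsm10 had the highest level, with 237, 288 and 283 FPKM in MII against 1.53 to 37.8 FPKM in two-cell M (4.80 ± 1.11 SE, adjusted p = 0.000765). Prpf6, a tri-snRNP bridging protein, stood at 2.32, 1.51 and 0.973 FPKM in MII and 0.01, 0.0274 and 0.289 FPKM in two-cell M (5.13 ± 0.99 SE, adjusted p = 0.000113). Sf3b3 stood at 1.44, 1.79 and 1.10 FPKM in MII and 0.01, 0.0442 and 0.163 FPKM in two-cell M (5.09 ± 1.45 SE, adjusted p = 0.00446). These and Sf3a2 (4.0 ± 0.77 SE, adjusted p = 0.000106) were called without each library. Lsm6 stood at 1.76, 1.90 and 2.73 FPKM in MII and 0.0132, 0.0356 and 0.552 FPKM in two-cell M (5.04 ± 1.52 SE, adjusted p = 0.00708), a call lost without two-cell M A (3.90, adjusted p = 0.0562). Lsm11 (4.49), Prpf19 (4.28), Prpf3 (4.73), Sf3b4 (3.12), Snrpb2 (2.89), Srsf3 (2.52), Lsm3 (2.44) and Sf3b5 (1.03) were the other 8, and each lost its call in 1 to 5 of the 6 fits. The groups overlapped in 3 of the 8, Lsm11, Snrpb2 and Srsf3, in each of which 1 two-cell M library was above the lowest MII library. The libraries were two-cell M B or C for Lsm11 (adjusted p = 0.0984 and 0.0896), two-cell M A for Prpf19 (0.0553), MII A or B or two-cell M A for Prpf3 (0.0647 to 0.145), two-cell M B for Sf3b4 (0.0563), and MII A or two-cell M A for Snrpb2 (0.0859 and 0.44). Without two-cell M B the change of Sf3b4 was 1.47, and without two-cell M A those of Snrpb2 and Srsf3 were 0.70 and 0.69. They were any but two-cell M B or C for Srsf3 (0.0745 to 0.564), any but MII A for Lsm3 (0.0509 to 0.0893) and any but two-cell M B for Sf3b5 (0.0539 to 0.149).

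Under quantile normalization, which moved the median of all genes by -2.51, the members' median in MII against two-cell M was -1.40, with 5 higher and 19 lower, beside 23% and 22.7% of all genes. In that normalization 8 of the 13 calls of higher levels in MII were lost, among them Lsm6 (1.81, adjusted p = 0.19), Sf3b3 (2.12, 0.15), Prpf19 (2.39, 0.12), Prpf3 (1.72, 0.32) and Lsm11 (1.44, 0.34), and the change of Srsf3 was -0.56 (0.64). Lsm10 and Prpf6 were still called. With the FPKM of its copies added, Srsf3 changed by 1.11 (adjusted p = 0.50).

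In polysomes against the non-polysome fraction of the same stage, members were called lower in polysomes more often than higher, with 25 calls lower and 2 higher over the 6 stages. The counts were 0 higher and 4 lower in GV (beside 2.61% and 2.35% of all genes), 0 and 0 in MII (0.0502% and 0.703%), 0 and 3 in the zygote (0.0377% and 1.34%), 0 and 1 in zygote M (1.43% and 0.49%), 0 and 10 in two-cell (9.69% and 6.38%) and 2 and 7 in two-cell M (9.7% and 5.06%). In MII 5 of 50 members had an unadjusted p under 0.05 by limma, beside 6.14% of all genes, and quantile normalization called 1 lower, beside 1.15% of all genes. The members' median was below that of all genes at each of the 6 stages, most in two-cell, at -1.09 against 0.28, and in GV, at -0.56 against 0.56. It was below that of all genes at each stage under quantile normalization as well, with 1 higher and 2 lower in two-cell M, beside 4.64% and 3.21% of all genes. The same scaling called 0 higher and 11 lower in GV (3.87% and 7.14%), 0 and 6 in the zygote (0.389% and 2.44%) and 0 and 5 in zygote M (1.15% and 2.44%). When each stage was fitted alone, the counts were 0 and 3 in GV (1.41% and 2.85%), 1 and 6 in MII (1.63% and 4.82%), 3 and 16 in the zygote (4.47% and 15.7%), 0 and 0 in zygote M (1.38% and 0.439%), 0 and 6 in two-cell (3.43% and 3.46%) and 0 and 0 in two-cell M (0.0628% and 0.176%). FPKM is a share of its own library, so these are differences in share and not in amount of RNA. In two-cell, where most members were called, the sum of the blood genes also differed between the fractions (34.3 to 83.7 FPKM in polysomes and 99.7 to 162 FPKM outside them). That sum was nearly all Hba-a1, and its part in these calls was not tested.

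**Figure D5:**
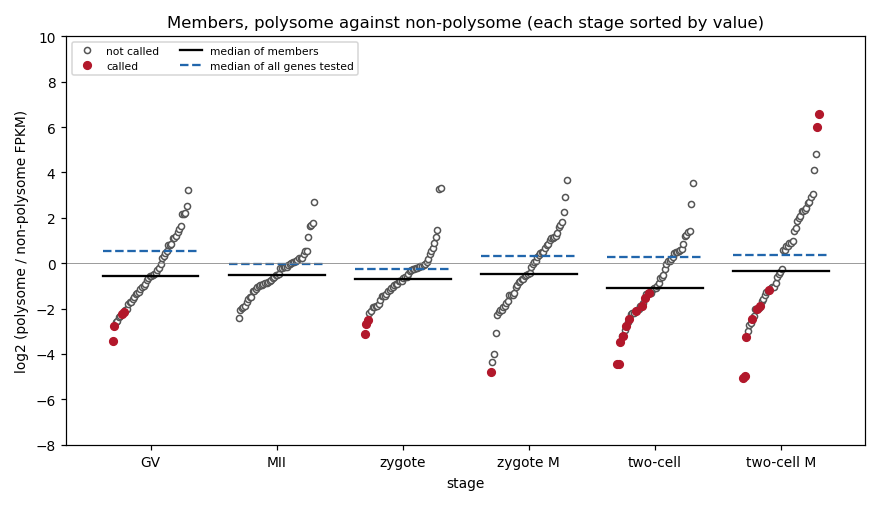
Log2 ratio of polysome to non-polysome FPKM (y axis) for the 50 members at each of the 6 stages (x axis), sorted within a stage, with called members filled. The solid line is the members' median and the dashed line the median of all genes tested, which lies above it at each stage (0.28 against -1.09 in two-cell).

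Snrpe, Snrpf and Snrpg were the members most often lower in polysomes. Snrpe in GV stood at 6.88, 12.5 and 3.80 FPKM in polysomes and 51.5, 48.0 and 42.3 FPKM in the non-polysome fraction (-2.78 ± 0.47 SE, adjusted p = 0.000448). In the zygote it stood at 1.39, 1.20 and 1.66 FPKM and 20.3, 10.1 and 8.71 FPKM (-3.11 ± 0.47 SE, adjusted p = 0.000101). The change was -2.46 in two-cell (adjusted p = 0.000615) and -1.90 in two-cell M (adjusted p = 0.00562). The fractions did not overlap in these 4 stages, and the calls were kept without each library. That of two-cell M was lost under quantile normalization (-0.98, adjusted p = 0.17). In MII and zygote M it was not called (-1.24 and -0.54, adjusted p = 0.41 and 0.756). Snrpf and Snrpg were called lower in GV, the zygote and two-cell. In GV Snrpf changed by -2.16 ± 0.58 SE, adjusted p = 0.0268 and Snrpg by -2.22 ± 0.53 SE, adjusted p = 0.0132, in the zygote by -2.70 ± 0.58 SE, adjusted p = 0.00897 and -2.49 ± 0.53 SE, adjusted p = 0.00867, and in two-cell by -2.76 ± 0.58 SE, adjusted p = 0.00171 and -1.87 ± 0.53 SE, adjusted p = 0.0166.

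The GV call of Snrpf was lost with the gradient as a block (-2.16, adjusted p = 0.0604), which left 3 members called in GV, and without GV polysome A or C or non-polysome A or B (adjusted p from 0.064 to 0.123), and that of Snrpg without polysome A or C (0.0507 and 0.0981). In the zygote both were lost without polysome C (0.0792 for Snrpf and 0.093 for Snrpg) or non-polysome B (0.0985 and 0.0976), and the two-cell call of Snrpg without polysome A (0.0701). The GV call of Snrpg was also lost with this stage fitted alone (-2.22, adjusted p = 0.0841). Its zygote call was lost with 1 FPKM added (-0.90, adjusted p = 0.162). Its two-cell call was lost under quantile normalization (-1.28, adjusted p = 0.113). Snrpd3, the gene of SmD3, was the other member called in GV, at 0.982, 1.11 and 1.57 FPKM in polysomes and 13.1, 14.1 and 11.4 FPKM in the non-polysome fraction (-3.42 ± 0.65 SE, adjusted p = 0.0017), with no overlap and no dependence on 1 library. In MII every non-polysome library was also above every polysome library (3.17, 2.67 and 2.35 FPKM against 0.647, 0.830 and 1.04 FPKM), where it was not called (adjusted p = 0.411).

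In two-cell the largest differences were those of Snrpb and Snrpb2. Snrpb stood at 0.976, 0.296 and 0.462 FPKM in polysomes and 9.79, 19.4 and 7.26 FPKM in the non-polysome fraction (-4.45 ± 0.95 SE, adjusted p = 0.00199). Snrpb2 stood at 0.169, 0.0924 and 0.149 FPKM and 2.39, 6.56 and 1.53 FPKM (-4.44 ± 1.05 SE, adjusted p = 0.00445). Snrpc stood at 0.767, 0.859 and 0.747 FPKM and 9.63, 8.56 and 8.43 FPKM (-3.49 ± 0.84 SE, adjusted p = 0.00505). In each the fractions lay apart, and the calls were kept without each library. Sf3b5 (-2.11 ± 0.43 SE, adjusted p = 0.00135) was also called without each. Srsf5 stood at 3.84, 5.08 and 0.282 FPKM and 7.10, 32.8 and 18 FPKM (-3.19 ± 0.85 SE, adjusted p = 0.0102), lost without polysome C (-1.87, adjusted p = 0.119) or non-polysome B (0.0555). Srsf2 (-1.32) and Lsm2 (-1.53) were the other 2 beside Snrpe, Snrpf and Snrpg. Srsf2 was not called without polysome A or C or non-polysome B (adjusted p from 0.0546 to 0.0994), nor Lsm2 without polysome A or B or non-polysome A or C (0.105 to 0.181) or with the gradient as a block (0.0843), and neither was called under quantile normalization (-0.56, adjusted p = 0.32, and -0.95, 0.20). Exons of Srsf2 overlap those of Mettl23 and Mfsd11, whose rows reached 7.48 and 1.98 FPKM.

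In two-cell M, Sf3b4, which binds pre-mRNA near the branch point, stood at 6.05, 0.169 and 4.46 FPKM in polysomes and 0.01, 0.0550 and 0.01 FPKM in the non-polysome fraction, 2 of whose libraries are at the floor (6.55 ± 0.84 SE, adjusted p = 2.38e-06). Lsm4 was the other gene higher in polysomes (7.91, 1.52 and 1.11 FPKM against 0.01, 0.245 and 0.0206 FPKM, 6.0 ± 1.71 SE, adjusted p = 0.0166), lost without polysome A or non-polysome A (adjusted p = 0.0708 and 0.0745). Srsf3 was lower, with 0.0148, 1.03 and 0.438 FPKM in polysomes and 7.85, 13.4 and 2.46 FPKM in the non-polysome fraction (-5.08 ± 1.07 SE, adjusted p = 0.00149). Others called lower were Sf3b5, Snrpe, Snrpc, Srsf2 and Lsm6, the last with levels of at most 2.64 FPKM. Without single libraries Snrpc was not called in 4 of 6 fits (polysome A or C, non-polysome A or C, 0.0777 to 0.118), Srsf2 in 4 (polysome A or B, non-polysome B or C, 0.0656 to 0.13) and Lsm6 in 3 (polysome A or B, non-polysome C, 0.0603 to 0.128). With the gradient as a block Snrpc was not called (-2.47, adjusted p = 0.0502), while Snrpa and Snrpd1 were (3.04, adjusted p = 0.0374, and -2.97, 0.0168). When only the libraries of this stage were fitted, none of the 9 was called.

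Other genes of the splicing pathway were followed by lists of symbols. Of 60 other genes of snRNPs and the spliceosome, 45 were tested, with 3 higher and 1 lower in MII against GV (beside 3.36% and 2.75% of all genes), 2 and 2 in zygote M against the zygote (3.24% and 2.51%), and 8 and 0 for two-cell M over two-cell (8.13% and 28.1%). The same shares stand beside the lists that follow. The median log2 changes of this list were 0.70, -1.58 and 1.04, beside 0.18, -0.43 and -1.17 for all genes tested. Ppil1, a cyclophilin of the spliceosome, stood at 4.80 to 6.64 FPKM in two-cell M and 0.0171 to 0.480 FPKM in two-cell polysomes (log2 fold change 6.73, adjusted p = 0.014), and was called in 4 of the 6 fits that left out a library. Ppie, also a cyclophilin, stood at 11.4 to 13.2 FPKM in MII and 0.133 to 0.336 FPKM in GV (5.70, adjusted p = 0.03), but was called in none of the 6 fits that left out a library. Zmat5 (-3.32) and U2af1, a 3′ splice site factor (-3.12), were lower in zygote M, and each was called in at most 1 of 6 such fits. Of 16 snRNP assembly genes 10 were tested, with 0 and 0, 0 and 1, and 3 and 1 in the same order. Gemin7 of the SMN complex, which loads Sm proteins onto snRNA, fell from 40.9 to 93.5 FPKM in two-cell polysomes to 2.38 to 3.63 FPKM in two-cell M (-4.20, adjusted p = 0.00197) and was called without each library. The arginine methyltransferase Prmt5 (3.55) and Snupn, the import adaptor of snRNPs (4.25), were higher in two-cell M, with calls kept in 3 and 2 of the 6 fits. The libraries of Snupn overlapped, at 0.0816 to 1.28 FPKM in two-cell M and 0.01 to 0.107 FPKM in two-cell. Coil, the gene of coilin, was lower in zygote M (-4.03), a call kept in none. Of 12 partners of SR proteins 9 were tested, with 0 and 0, 0 and 1, and 1 and 0, and Tra2b (3.40, in two-cell M) and the kinase gene Clk1 (-4.40, in zygote M) were called, kept in 5 and 1 of 6 fits.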

How the data were processed

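RNA of polysome and non-polysome gradient fractions was measured by SMART-seq v4 and Nextera XT libraries read as paired ends. Per the labels, reads were trimmed with Trim Galore 0.4.1, aligned to GRCm38 with STAR 2.5.3a and quantified with Partek, and the authors deposited FPKM per gene, with a lowest value of 0.01. No counts were used, and the depth was estimated from the spacing of FPKM values, which gives no precision for single values. Of the 38 samples, 2 zygote samples lettered A have no column in the table and were not analysed here.

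FPKM were taken as log2 with nothing added. Genes below a geometric mean of 0.1 FPKM (36 libraries) were left out and the other 7967 fitted with limma 3.58.1 in R 4.3.3, with 12 group means and a trended prior. The polysome and non-polysome libraries of a stage with the same letter were read as pools of 1 gradient, since the study divided each gradient into both pools and numbers its replicates by these letters, although no source names the gradient of a library. Their residuals correlated by 0.0756 on average, and those of different letters by -0.0372. P-values were adjusted by the Benjamini-Hochberg method over all of them. Calls needed an adjusted p under 0.05 and a change above 2-fold, and interactions the adjusted p alone. All tests were two-sided. The fit was tested on simulated data for MII against GV, where it missed most of the planted changes and called none in the wrong direction, so a member that was not called may still differ. Copies were sought with BLAST+ 2.17.0.

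The members, roles and gene lists were chosen with earlier results of these data known. Named members were the 2 of each role with the highest mean in polysomes, in each comparison the 4 strongest rises and 4 strongest falls among called members whose groups did not overlap, and members called in all 3 M-phase comparisons or below the minimum. Of the other lists the 2 strongest called rises and 2 strongest called falls were named. Further members were named after their values were seen, to account for a count or a copy. The alternatives were 1 FPKM added before the logarithm, no minimum, quantile normalization, only the libraries of the groups compared, a replicate block and leaving out each library. Adding the FPKM of the copies to the member was chosen after seeing the data. 1 member and 1 sequence are not reported here, and counts include that member.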

Additional observations from a re-analysis of the deposited data

Results flagged for a closer look

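The change from interphase to M-phase in polysomes differed between stages for 32 member values, each by a limma interaction contrast with adjusted p under 0.05 over all genes tested, and 31 of them are given here. Between zygote and oocyte, the difference of log2 changes was 6.19 ± 0.75 SE, adjusted p = 1.22e-06 for Snrpg, 5.71 ± 0.79 SE, adjusted p = 9.12e-06 for Lsm7, 4.84 ± 0.82 SE, adjusted p = 0.000157 for Snrpf and 3.29 ± 0.66 SE, adjusted p = 0.00106 for Snrpe. It was -3.81 for Snrpc (adjusted p = 0.0379), -5.43 for Sf3b6 (0.0239), -6.20 for Snrpd2 (0.00108), -7.73 for Prpf31 (0.0203) and -9.28 for Prpf3 (0.019). The last 2 values rest in part on the floor and have no firm size. Prpf3 stood at 0.0446, 0.01 and 0.292 FPKM in GV polysomes and 0.0210, 0.01 and 0.01 FPKM in zygote M. Prpf31 stood at 0.302, 0.01 and 0.278 FPKM in GV polysomes and 0.237, 0.352 and 0.0327 FPKM in zygote M.

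Between two-cell and zygote, it was 9.21 for Srsf6 (limma adjusted p = 0.0205), 7.36 for Lsm4 (0.0272), 6.45 for Sf3b6 (0.00342), 6.34 for Prpf4b (0.00193), 5.43 for Sf3a3 (0.0328) and 5.21 for Snrpc (0.00201). It was 4.51 for Srsf7 (limma adjusted p = 0.00436), 3.97 for Snrpb (0.0317), 3.37 for Snrpd2 (0.0487), 2.01 for Sf3b5 (0.0173) and 1.83 for Srsf2 (0.0155). For Gm10120, the copy of Snrpd2, it was 2.06 and did not pass (limma adjusted p = 0.31). The two-cell change was the lower one for Snrpe at -2.83 (limma adjusted p = 0.00244), Lsm7 at -3.19 (0.00429), Snrpf at -4.16 (0.00052), Snrpg at -4.44 (9.2e-05) and Lsm10 at -4.83 (0.026).

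Between two-cell and oocyte, it was 7.39 for Lsm4 (limma adjusted p = 0.026), 4.49 for Prpf4b (0.0225), 2.52 for Lsm7 (0.0207), 2.38 for Lsm2 (0.0192), -6.09 for Lsm10 (0.00527) and -6.72 for Sf3b3 (0.0169). The rows of near-identical copies of Snrpe, Snrpf, Snrpg and Lsm7 rose in zygote M with their members. Their own differences between zygote and oocyte were 7.07 for Gm8186 (limma adjusted p = 4.9e-10) and 5.61 for Gm10146 (1.99e-06). They were 5.19 for Gm13092 (limma adjusted p = 5.19e-06) and 3.97 for Snrpert (2.69e-05). How far fragments of the copies enter the members' rows was not tested. Groups of 3 libraries were not tested for single outlying libraries.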

How the results depend on the processing

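FPKM without counts leave the precision of low values unknown, and with 3 libraries a group and values at a floor, fold changes near 0.01 FPKM have no firm size. The counts below are of members called among the 50 tested (more where no minimum was set), with the number higher, the number lower and the share of all genes called in the same fit in brackets, and the cause of each shift was not tested. With 1 FPKM added it was 14 (9 and 5, 20.1%) in MII against GV, 10 (5 and 5, 11.3%) in zygote M against the zygote, 11 (7 and 4, 16.4%) in GV against the zygote, 7 (0 and 7, 12%), 1 (0 and 1, 2.38%) and 2 (0 and 2, 1.56%) in polysome against non-polysome of GV, MII and zygote M, and 16 (6 and 10, 26.5%) and 14 (10 and 4, 29.4%) in the zygote and two-cell changes minus that of MII. Under quantile normalization, with directions given in the report, it was 11 (19.4%), 13 (14.6%), 22 (37.3%) and 13 (17.7%) in MII against GV, zygote M against the zygote, two-cell M against two-cell and GV against the zygote, 22 (26.1%) in MII against zygote M, 11 (11%), 1 (1.48%), 6 (2.82%), 5 (3.59%) and 3 (7.86%) in the fractions of GV, MII, the zygote, zygote M and two-cell M, and 19 (24.6%) and 20 (30.4%) in the zygote and two-cell changes minus that of MII. With only the libraries of the groups compared it was 13 (27.1%) in MII against GV, 23 (33.1%) in zygote M against the zygote, 6 (20.9%) in two-cell M against two-cell, 14 (31%) in GV against the zygote, 28 (40.6%) in MII against zygote M, and 7 (6.45%), 19 (20.1%), 0 (1.82%), 6 (6.89%) and 0 (0.238%) in the fractions of the 5 stages from MII onwards. Without a minimum the two-cell change minus that of the zygote called 11 (7 and 4, 9.29%), and with copies added MII against GV called 5 (1 and 4, 6.14%) and the fractions of MII 2 (0 and 2, 0.778%).

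Leaving out 1 library gave 2 to 3 (3.67% to 5.2%) calls in MII against GV, 5 to 6 (3.41% to 4.44%) in zygote M against the zygote, 6 to 13 (29% to 35%) in two-cell M against two-cell, 5 (2.82% to 5.59%) in GV against the zygote, 3 to 6 (11.3% to 13.6%) in GV against two-cell, 7 to 10 (7.9% to 9.2%) in MII against zygote M and 10 to 16 (45.9% to 51.9%) in MII against two-cell M. In the fractions it gave 2 to 5 (1.74% to 7.71%) in GV, 0 (0.251% to 0.615%) in MII, 1 to 3 (0.678% to 1.17%) in the zygote, 0 to 3 (0.778% to 2.65%) in zygote M, 7 to 12 (11% to 18.2%) in two-cell and 5 to 12 (11.3% to 16.1%) in two-cell M. Of the 56 fold changes picked by the naming rule 33 were called in every such fit and 0 changed direction under any alternative run, whereas Srsf3 in MII against two-cell M, outside that rule, went from 2.52 to -0.56 under quantile normalization. Across stages libraries share only a letter. A replicate block called 2 (5.82%), 5 (4.71%) and 9 (35.4%) members in the 3 M-phase comparisons, 5 (4.39%) and 6 (16.3%) in GV against the zygote and two-cell, 10 (11.9%) and 17 (52.6%) where MII was compared with the embryo M-phases, and 3 (4.18%), 0 (0.715%), 3 (1.31%), 1 (1.86%), 9 (16%) and 9 (14.6%) in the fractions in stage order, where the letter was read as the gradient. The calls in the fractions that this block changed are given beside those results, except that of the member not reported.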
